A study of Homo sapiens with 16 samples.

Results

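The p38 mitogen-activated protein kinase (MAPK) cascade was followed at the level of its own messenger RNAs, through 10 kinases named by gene symbol. They include the upstream kinase MAP3K5 (ASK1) and 2 of the kinases that activate p38, MAP2K3 (MKK3) and MAP2K6 (MKK6). The 4 p38 kinases are MAPK14 (p38α), MAPK11 (p38β), MAPK12 (p38γ) and MAPK13 (p38δ). The last 3 are among the kinases that p38 activates, MAPKAPK2 (MK2), MAPKAPK3 (MK3) and MAPKAPK5 (MK5, also called PRAK). The rows were found by Entrez identifier in 2 tables of gene expression, which list 13559 and 14024 genes and together 14108. All 10 kinases are in the second table and 9 are in the first, where MAPK13 is not listed. LN229, an established human glioblastoma cell line, was grown in regular culture (medium with serum and full nutrients) or in ischemic culture, which combines medium low in nutrients with hypoxia to mimic a poor blood supply. The first experiment compared the 2 cultures in untreated cells (4 libraries). The second compared both cultures under DMSO, the vehicle, under VX745, an inhibitor of p38α, and under MK25, an inhibitor of MK2 (12 libraries). Each of the 8 groups has 2 libraries of the same cell line. No source used here says of these sequencing libraries that they came from separate cultures, so p-values measure only the spread between these samples, which may be technical.

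In this cascade, a stress signal activates a MAP3K such as ASK1, which phosphorylates MKK3 and MKK6, and these phosphorylate p38. Active p38 phosphorylates transcription factors and the kinases MK2, MK3 and MK5, and MK2 acts on proteins that bind AU-rich messenger RNAs of cytokines. The pathway is known for relaying oxidative, osmotic, endoplasmic reticulum and inflammatory stress, and signalling through it is set by phosphorylation, which RNA sequencing does not measure. The values below are therefore transcript levels, and none of them is a kinase activity.

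Sequencing depth, counted as reads assigned to listed genes, ran from 20122017 to 37562668 per library. The size to which the authors scaled a library, divided by its reads, was 0.894 to 0.986 in ischemic and 1.04 to 1.08 in regular libraries. The LN229 markers NES, VIM, CD44, SOX2, EGFR, OLIG2 and GFAP were detected in every library, GFAP with only 21 to 55 reads. PTPRC, PECAM1, EPCAM and RBFOX3, markers of leukocytes, endothelium, epithelium and neurons, are not listed in either table. Of the 7 LN229 markers examined, 2 rose and 4 fell in untreated ischemia and 3 rose and 3 fell with DMSO. The largest log2 changes, untreated and with DMSO, were those of SOX2 (-3.11 and -2.23) and, upward, of VIM (1.38 and 1.27). CD68, a lysosomal protein abundant in macrophages, was listed and rose in ischemia by 0.77 and 0.94 on the log2 scale. The part of these markers in the values of the kinases was not tested. All 6 hypoxia genes examined (CA9, VEGFA, NDRG1, ADM, ANKRD37, SLC2A1) rose in ischemic culture in each experiment, with a median log2 change of 4.97 in untreated cells and 5.45 with DMSO. MK25 also raised all 6 of them in regular culture, with a median log2 change of 1.12, and VX745 lowered 5 of them in ischemic culture, with a median of -0.39. Their part in the inhibitor values given below was not tested. In bulk RNA, fewer cells expressing a gene and less RNA per cell cannot be told apart.

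The transcripts of MAP2K6, MAP2K3 and MAPK14 are the ones on which most of the differences below turn, and the 250 bases before their annotated starts are shown to let a reader see what these genes carry there. The sequences are from RefSeq on GRCh38.p14, written on the strand of the gene from 5′ to 3′, and all 3 genes lie on the plus strand. They cover chr17:69414447-69414696 for MAP2K6, chr17:21284461-21284710 for MAP2K3 and chr6:36027558-36027807 for MAPK14. MAP2K6 and MAP2K3 have 2 listed promoters each and MAPK14 has 1. For each gene the window at the start of its annotated main transcript is shown, and any other is not. Capitals mark matches on either strand to the hypoxia response cores ACGTG and GCGTG, to the AP-1 site TGANTCA, to the cAMP response element TGACGTCA and to the ATF4 and C/EBP composite site TGATGNAA.
MAP2K6: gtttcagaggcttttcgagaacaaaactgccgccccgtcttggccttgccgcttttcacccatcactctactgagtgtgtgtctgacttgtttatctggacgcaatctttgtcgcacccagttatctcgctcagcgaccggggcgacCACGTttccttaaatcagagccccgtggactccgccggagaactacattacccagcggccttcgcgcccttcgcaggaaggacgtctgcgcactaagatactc
MAP2K3: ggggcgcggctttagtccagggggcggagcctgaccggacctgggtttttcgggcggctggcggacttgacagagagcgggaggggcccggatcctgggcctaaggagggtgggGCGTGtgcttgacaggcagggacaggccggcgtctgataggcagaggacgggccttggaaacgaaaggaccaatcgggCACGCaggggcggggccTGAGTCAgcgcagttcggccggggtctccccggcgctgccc
MAPK14: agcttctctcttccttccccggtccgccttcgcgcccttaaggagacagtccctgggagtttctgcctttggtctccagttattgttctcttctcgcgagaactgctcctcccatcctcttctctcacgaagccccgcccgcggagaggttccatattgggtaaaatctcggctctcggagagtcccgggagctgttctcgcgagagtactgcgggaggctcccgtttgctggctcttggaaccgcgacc

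The MAP2K6 window holds 1 ACGTG core, whose first base lies 103 bases before the start. The MAP2K3 window holds 2 GCGTG cores, at 136 and 58 bases before the start, and 1 AP-1 site at 41 bases before it. The MAPK14 window holds none of the 5 motifs. Over windows of 300 bases (250 before and 50 after the start), ACGTG was present in 3 of the 9 members with a promoter in the table and in 21.4% of 35116 promoters, GCGTG in 5 of 9 and in 36.5%, and TGANTCA in 1 of 9 and in 7.71%. TGACGTCA and TGATGNAA were in none of the 9, against 1.85% and 3.62% of all promoters. These are matches of letters and not sites shown to be bound. The 3 windows differ in composition, with 55.6% G and C in MAP2K6, 59.2% in MAPK14 and 70.4% in MAP2K3.

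The genes lie in a few places (GRCh38.p14, RefSeq). MAPK14 (chr6:36027808-36124214) and MAPK13 (chr6:36130513-36144521) stand head to tail on the plus strand with 6298 bases between them, and MAPK12 (chr22:50252901-50261683) and MAPK11 (chr22:50263713-50270380) stand likewise on the minus strand with 2029 bases between them. MAP2K3 (chr17:21284711-21315240) and MAP2K6 (chr17:69414697-69553865) share a chromosome at a distance, MAP3K5 is at chr6:136557046-136793091 on the minus strand, and MAPKAPK2 (chr1:206684905-206734281), MAPKAPK3 (chr3:50611520-50649291) and MAPKAPK5 (chr12:111842228-111902222) are on the plus strand. Of the MAP2K3 transcript, 20.8% of the words of 31 bases occur again elsewhere on chromosome 17, so its level is uncertain to the extent that reads were divided between copies. In the MAPKAPK5 transcript, 24.1% of the bases lie in exons of other genes, mainly ADAM1A on the same strand and also the antisense gene MAPKAPK5-AS1. Reads from the bases shared on the same strand cannot be assigned to 1 gene. The strand setting of the counting is not given in the sources used here, so this may hold for the antisense gene too. The MAPKAPK5 values therefore carry the same caution.

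Levels of different genes were compared only per kilobase of the annotated main transcript, as normalized CPM (reads of a gene relative to the scaled size of its library) per kilobase. In regular culture with DMSO (n = 2 libraries for each mean ± SD), MAPKAPK2 stood highest at 51.0 ± 0.509 CPM per kb, followed by MAP2K3 at 35.1 ± 1.11 and MAPK14 at 17.7 ± 0.246. MAPKAPK3 was at 15.1 ± 0.369, MAPK12 at 13.7 ± 0.381 and MAPK11 at 8.21 ± 0.219 CPM per kb. MAP3K5 at 4.36 ± 0.123, MAPKAPK5 at 3.03 ± 0.136, MAP2K6 at 0.914 ± 0.0456 and MAPK13 at 0.137 ± 0.0153 CPM per kb followed. Thus, among the p38 kinases, p38α, p38γ and p38β were all well represented and p38δ was close to the limit of detection, with between 10 and 30 reads in any library of the second experiment. These levels rest on the transcript length that is used. The annotated transcripts of all members but MAPK12 and MAP3K5 are mostly untranslated, and the longest are those of MAP2K6 (13405 bases), MAPKAPK5 (11083 bases) and MAPK13 (6316 bases). Per coding length, MAP2K6 made up 13.9% of the 2 activators in regular culture with DMSO, against 2.54% per transcript length.

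**Figure D1:**
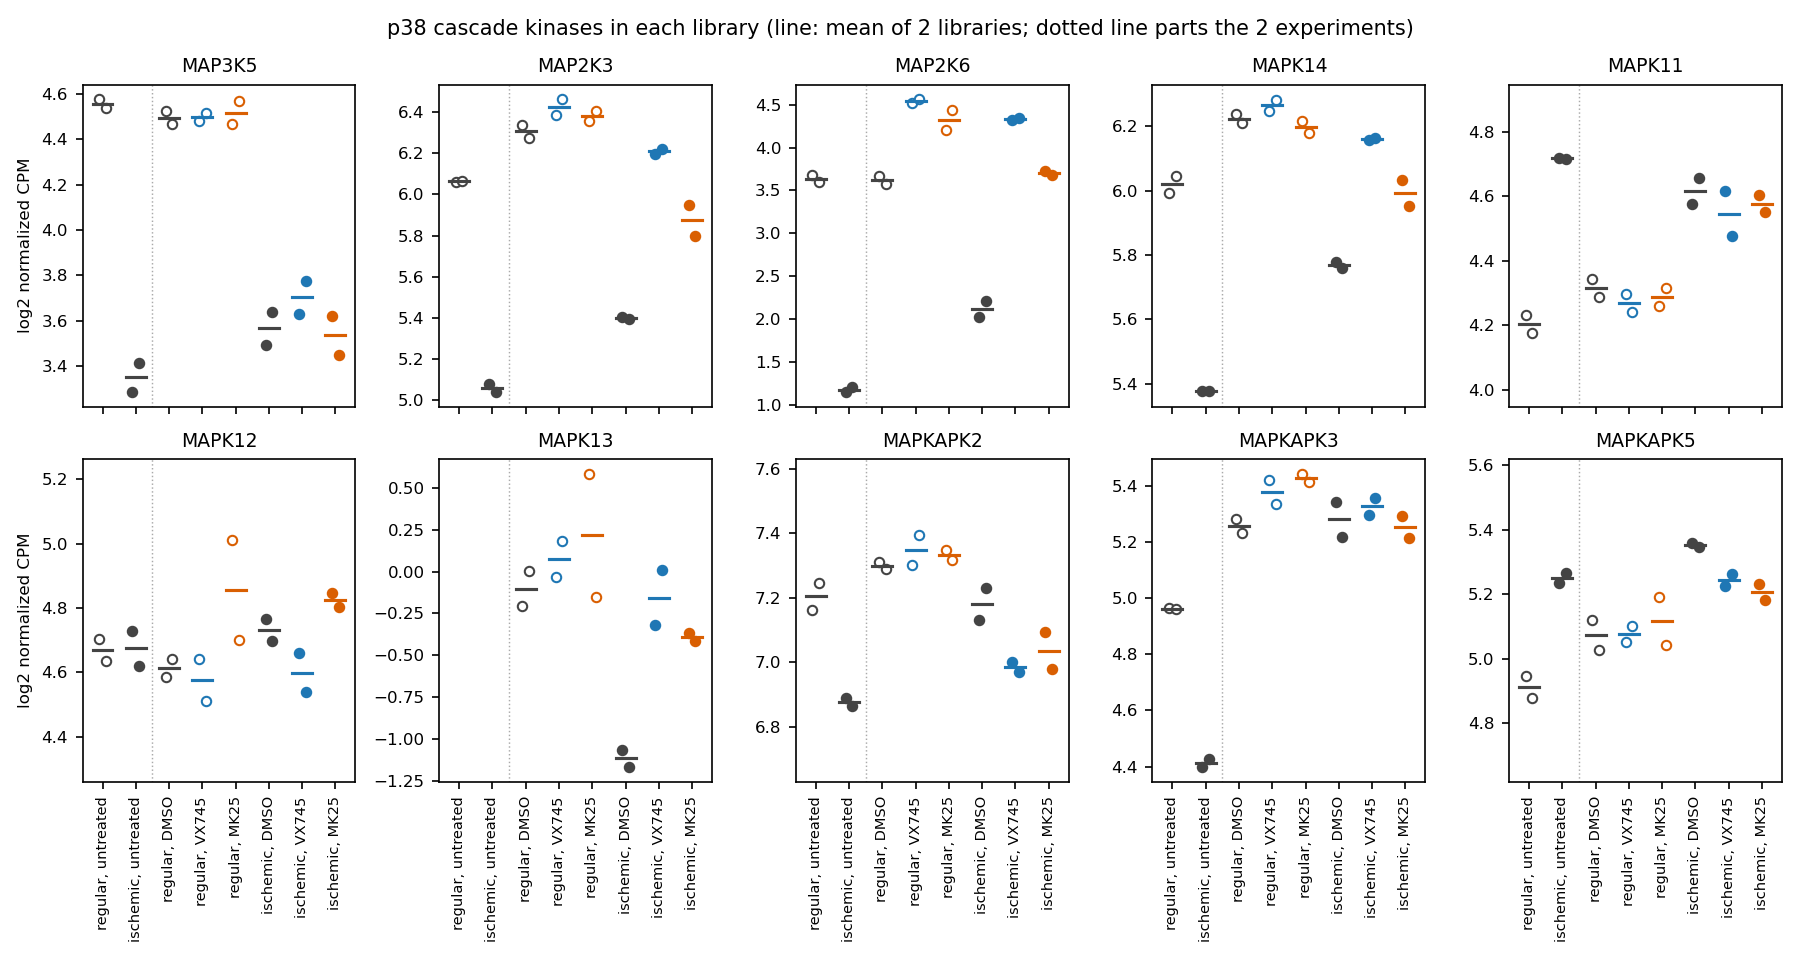
Log2 normalized CPM (vertical axis, scaled for each gene) of the 10 kinases in each of the 16 libraries, by group along the horizontal axis. Points are single libraries, open for regular and filled for ischemic culture, black without inhibitor, blue for VX745 and orange for MK25, and short lines are means of 2 libraries. MAP2K6 spans the widest range, from 1.15 in an untreated ischemic library to 4.56 in a regular library with VX745, and MAPK13 has no points in the first experiment.

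The first question was how the cascade's transcripts differ between ischemic and regular culture. In untreated cells, MAP2K6, MAP3K5, MAP2K3, MAPK14, MAPKAPK3 and MAPKAPK2 fell in ischemia, MAPK11 and MAPKAPK5 rose, and MAPK12 did not pass the test. Thus 8 of the 9 members listed were called (adjusted p under 0.05, limma), 2 higher and 6 lower, where 70.4% of all genes were called, 35.2% higher and 35.2% lower. Of the genes called, 50% were higher, and 37.5% with reads scaled to library totals. The share is near that background, and the size and direction of the single changes are what follows. The median log2 change over the 9 members was -0.55 in untreated cells, and -0.29 over the 10 members with DMSO, beside -0.01 over all genes in each.

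MAP3K5, the gene of ASK1, is at the top of the cascade. Its log2 normalized CPM was 4.58 and 4.54 in untreated regular culture and 3.29 and 3.41 in untreated ischemic culture. With DMSO it was 4.52 and 4.47 in regular and 3.49 and 3.64 in ischemic culture. Ischemic libraries were below regular ones in each experiment with no overlap, and MAP3K5 fell by 1.21 ± 0.106 (SE) on the log2 scale without vehicle (limma adjusted p = 6.43e-07) and by 0.93 ± 0.0933 with DMSO (adjusted p = 1.04e-07).

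Among the activators of p38, MAP2K6 (MKK6) showed the largest change of the cascade. Its log2 normalized CPM was 3.68 and 3.60 in untreated regular culture and 1.15 and 1.20 in untreated ischemic culture, where it had 59 and 47 reads. With DMSO it was 3.67 and 3.57 in regular and 2.02 and 2.21 in ischemic culture. The regular libraries of the 2 experiments were close to each other, and the ischemic ones lay far below them. The fall was 5.51-fold without vehicle (log2 change -2.46 ± 0.151, adjusted p = 2.77e-08) and 2.84-fold with DMSO (-1.51 ± 0.101, adjusted p = 5.05e-10). The first ranks 361 by size among 13559 genes and the second 1011 among 14024.

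MAP2K3 (MKK3), the more abundant of these 2 activators per kilobase, fell as well. Its log2 normalized CPM was 6.06 and 6.07 in untreated regular against 5.08 and 5.04 in untreated ischemic culture, and 6.34 and 6.27 against 5.41 and 5.39 with DMSO. The log2 change was -1.01 ± 0.0755 without vehicle (adjusted p = 1.62e-07) and -0.91 ± 0.0621 with DMSO (adjusted p = 6.85e-10). Together, the 2 activators summed to 30.5 ± 0.0357 CPM per kb in untreated regular and 14.9 ± 0.270 in untreated ischemic culture, and to 36.0 ± 1.15 and 19.0 ± 0.0792 with DMSO.

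The p38 genes moved in different directions. MAPK14, which encodes the p38α that VX745 targets, was at log2 values of 5.99 and 6.05 in untreated regular and 5.38 and 5.38 in untreated ischemic culture, and at 6.24 and 6.21 against 5.78 and 5.76 with DMSO. It fell by 0.64 ± 0.0744 without vehicle (adjusted p = 7.69e-06) and by 0.45 ± 0.0559 with DMSO (adjusted p = 1.25e-06), both on the log2 scale. MAPK11 (p38β) lay the other way, at 4.23 and 4.17 in untreated regular and 4.72 and 4.72 in untreated ischemic culture, and at 4.34 and 4.29 against 4.58 and 4.66 with DMSO. It rose by 0.51 ± 0.0922 (adjusted p = 3.03e-04) and by 0.30 ± 0.0788 (adjusted p = 0.00251). With reads scaled to library totals instead, its rise with DMSO was 0.08 and was not called, and that scaling moves the median of all genes by -0.23.

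MAPK12 (p38γ), the neighbour of MAPK11, was at 4.62 to 4.73 in all 4 untreated libraries, with a log2 change of 0.01 (95% interval -0.19 to 0.21). With DMSO its change was 0.12 (-0.08 to 0.31). MAPK13 (p38δ), the neighbour of MAPK14, had 25 and 23 reads in regular and 10 and 11 reads in ischemic culture with DMSO, and its log2 change was -1.01 ± 0.338 (adjusted p = 0.0131). That call rests on few reads and is lost without the second library of ischemic DMSO (adjusted p = 0.0555) or of regular DMSO (adjusted p = 0.0569).

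The summed level and the makeup of the p38 kinases are given as a description. The sum was 37.2 ± 0.293 CPM per kb in untreated regular and 35.0 ± 0.792 in untreated ischemic culture, while the MAPK14 share went from 41.3% to 28.1% and the MAPK11 share from 20.4% to 31%. With DMSO, the sum was 39.8 ± 0.0682 in regular and 38 ± 0.213 in ischemic culture, and the MAPK14 share was 44.5% and 33.9%. Per coding length in place of transcript length, the MAPK14 share with DMSO was 62.7% in regular and 51.8% in ischemic culture.

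**Figure D2:**
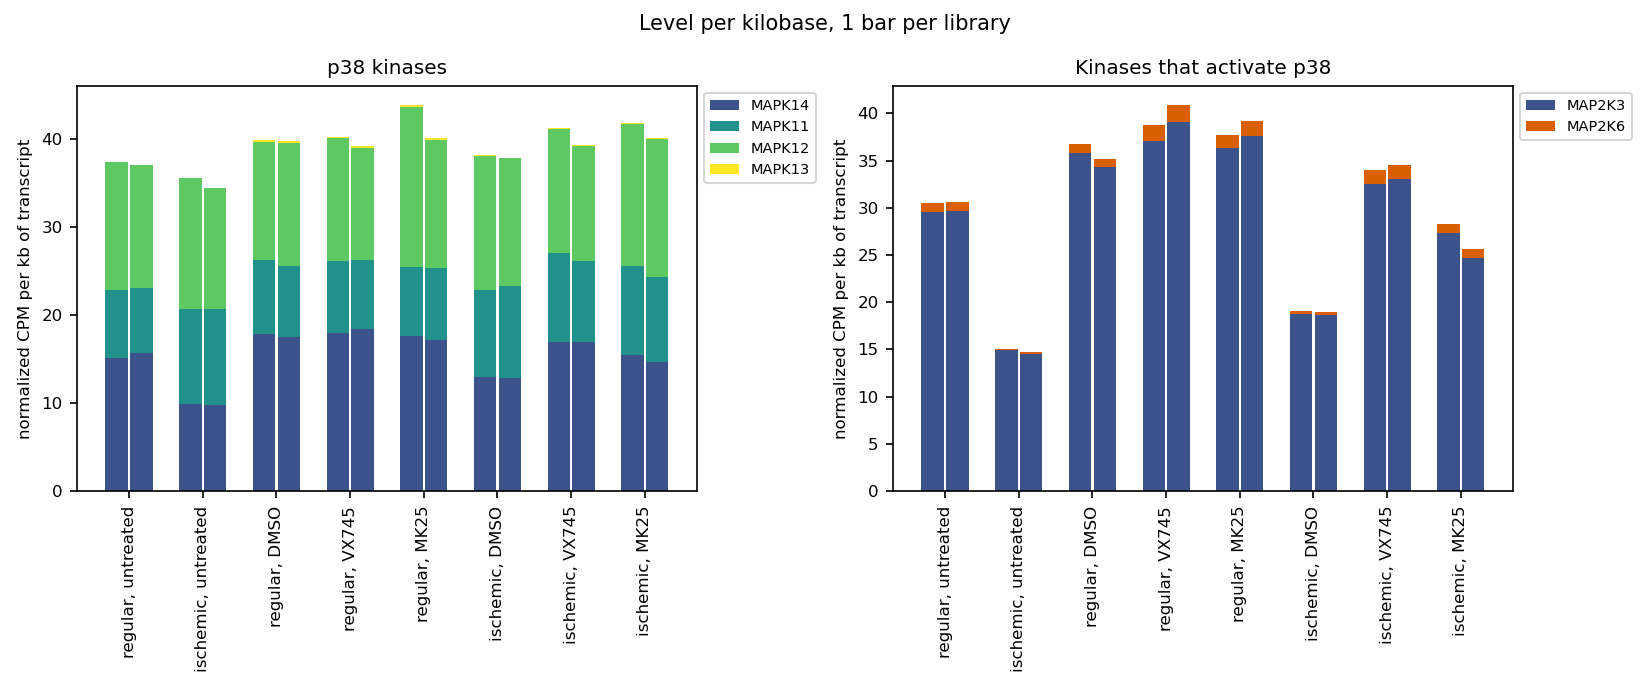
Normalized CPM per kilobase of transcript (vertical axis, from 0), stacked by gene, with 1 bar for each of the 2 libraries of a group. The p38 kinases are on the left, and MAP2K3 and MAP2K6, which activate p38, are on the right. The bars of the p38 kinases are of similar height in all groups. Their MAPK14 part is smaller in ischemic than in regular culture under the same treatment. The sum of MAP2K3 and MAP2K6 is lowest in untreated ischemic culture (14.9 CPM per kb) and highest in regular culture with VX745 (39.8).

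Of the kinases activated by p38, MAPKAPK2 (MK2, the target of MK25) was at log2 values of 7.16 and 7.25 in untreated regular and 6.89 and 6.86 in untreated ischemic culture, and it fell by 0.33 ± 0.0673 (adjusted p = 8.47e-04). With DMSO the change was -0.12 ± 0.0578 and did not pass (adjusted p = 0.0759). It passed with quantile normalization (-0.24) and with reads scaled to library totals (-0.34). MAPKAPK3 (MK3), which acts much like MK2 on shared substrates, fell by 0.55 ± 0.0875 on the log2 scale in untreated cells (adjusted p = 1.18e-04), from 4.96 and 4.96 to 4.40 and 4.43. With DMSO its change was 0.02 (95% interval -0.12 to 0.17) and did not pass, while with reads scaled to library totals it was called as a fall (-0.20, adjusted p = 0.0150). MAPKAPK5 (MK5) rose by 0.34 ± 0.0826 in untreated cells (adjusted p = 0.00283) and by 0.28 ± 0.0695 with DMSO (adjusted p = 0.00172), and neither rise was called with reads scaled to library totals.

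With DMSO, 7 of the 10 members were called, 2 higher and 5 lower, where 69.6% of all genes were called, 34.4% higher and 35.2% lower. Of the genes called with DMSO, 49.4% were higher, and 32.2% with reads scaled to library totals. The 2 experiments share no library. Of the 9 members listed in both, 6 were called in both and all 6 in the same direction. MAP3K5, MAP2K3, MAP2K6 and MAPK14 were lower and MAPK11 and MAPKAPK5 higher in ischemia. Of all genes, 70.4% were called in untreated cells and 69.6% with DMSO. The share of all genes called in both with the same direction was not computed, so this count has no background beside it. The tables were normalized separately and the difference between the experiments was not tested.

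The culture effect was then read under each inhibitor. With VX745 in both cultures, 5 of 10 members were called (66.6% of all genes). MAP3K5 fell by 0.80 ± 0.0933, MAPKAPK2 by 0.36 ± 0.0578 and MAP2K3 by 0.22 ± 0.0621, and MAPK11 rose by 0.28 ± 0.0788 and MAPKAPK5 by 0.17 ± 0.0695 (log2 scale, adjusted p = 8.04e-07, 2.71e-05, 0.00548, 0.00507 and 0.0412). MAP2K6 changed by -0.21 (95% interval -0.42 to 0.01) and MAPK14 by -0.11 (-0.22 to 0.01), and MAPK12, MAPK13 and MAPKAPK3 lay between -0.23 and 0.02. MAP2K6 was called, and lower in ischemia, under 5 of the alternatives, as was MAPK14 under 2. Over the alternatives MAP2K6 ran from -0.32 to -0.18 and MAPK14 from -0.22 to -0.09. MAPKAPK5 kept its call under 5 of 12 alternatives and lost it with any 1 of the 4 libraries left out. The count falls to 3 without the first library of ischemic VX745, where MAPK11 is lost too (adjusted p = 0.0846), or the second of regular VX745, where MAP2K3 is (adjusted p = 0.0553).

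With MK25 in both cultures, 7 of 10 members were called (67.2% of all genes). MAP3K5 fell by 0.98 ± 0.0933, MAP2K6 by 0.62 ± 0.101, MAP2K3 by 0.51 ± 0.0621, MAPKAPK2 by 0.30 ± 0.0578, MAPK14 by 0.21 ± 0.0559 and MAPKAPK3 by 0.17 ± 0.0682, and MAPK11 rose by 0.29 ± 0.0788 (log2 scale, adjusted p from 5.96e-08 for MAP3K5 to 0.0341 for MAPKAPK3). MAPK12, MAPK13 and MAPKAPK5 were not called, at -0.03, -0.60 and 0.09. MAPKAPK3 kept its call under 8 of 12 alternatives. The call is lost without the second ischemic MK25 library or either regular one. MAP3K5 and MAPK11 therefore differed between cultures by similar amounts under DMSO, VX745 and MK25, whereas the values of MAP2K6 and MAP2K3 were smaller under the inhibitors. The interaction terms given further on are the tests of these differences.

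**Figure D3:**
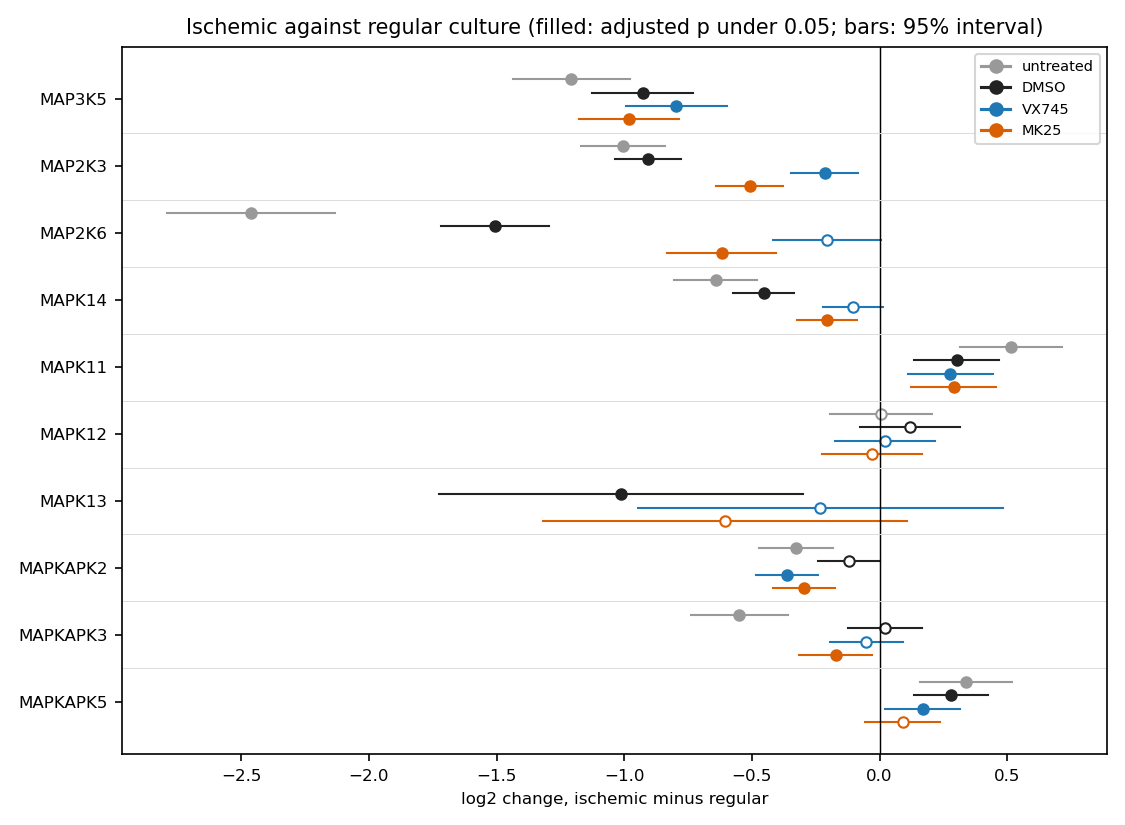
Log2 change from regular to ischemic culture (horizontal axis) of each kinase in untreated cells and under DMSO, VX745 and MK25. Points are limma estimates, filled where the adjusted p is under 0.05, and bars are 95% intervals. MAP2K6 lies at -2.46 and -1.51 without inhibitor and at -0.21 and -0.62 with VX745 and MK25, while the 4 estimates of MAP3K5 lie between -1.21 and -0.80.

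The second question was what the inhibitors change in ischemic culture. VX745 raised MAP2K6, MAP2K3, MAPK14 and MAPK13 and lowered MAPKAPK2, so that 5 of 10 members were called where 28.9% of all genes were. MK25 raised MAP2K6, MAP2K3 and MAPK14, so that 3 of 10 were called where 41.7% of all genes were. Both comparisons use the same 2 DMSO libraries, and their values are therefore set side by side without a measure of likeness.

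The log2 level of MAP2K6 in ischemic culture was 2.02 and 2.21 in the DMSO libraries, 4.32 and 4.35 in those with VX745 and 3.73 and 3.68 in those with MK25. The reads behind these values were 98 and 134, 655 and 630, and 486 and 450. All inhibitor libraries lay above the DMSO libraries and also above the regular DMSO libraries at 3.67 and 3.57. The rise was 4.66-fold with VX745 (log2 change 2.22 ± 0.101, adjusted p = 4.15e-10) and 3.01-fold with MK25 (1.59 ± 0.101, adjusted p = 5.05e-09). By size these are ranks 12 and 85 among 14024 genes.

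MAP2K3 was at 5.41 and 5.39 with DMSO, 6.20 and 6.22 with VX745 and 5.95 and 5.80 with MK25 in ischemic culture. Again no library of an inhibitor group overlapped the DMSO group. It rose by 0.81 ± 0.0621 with VX745 (adjusted p = 1.83e-07) and by 0.47 ± 0.0621 with MK25 (adjusted p = 1.55e-05) on the log2 scale. The summed level of the activators was 34.3 ± 0.416 CPM per kb with VX745 and 27 ± 1.90 with MK25, beside 19.0 ± 0.0792 with DMSO.

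MAPK14 was at 5.78 and 5.76 with DMSO, 6.16 and 6.16 with VX745 and 6.03 and 5.95 with MK25. It rose by 0.39 ± 0.0559 with VX745 (adjusted p = 8.72e-05) and by 0.22 ± 0.0559 with MK25 (adjusted p = 0.00415). The call with MK25 is lost without its first library (adjusted p = 0.0511). MAPKAPK2, the transcript of the kinase that MK25 inhibits, was at 7.13 and 7.23 with DMSO, 7.0 and 6.97 with VX745 and 7.09 and 6.98 with MK25.

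MAPKAPK2 fell by 0.20 ± 0.0578 with VX745 (adjusted p = 0.0171), and its change with MK25 was -0.15 ± 0.0578 (adjusted p = 0.0530). The latter was called as a fall under 4 alternatives (adjusted p from 0.00601 to 0.0485). The call with VX745 held under 6 of 12 alternatives and is lost without either VX745 library or the second DMSO library. With reads scaled to library totals the change was -0.08. MAPK13 had 24 and 29 reads with VX745 and 26 and 24 with MK25, beside 10 and 11 with DMSO. Its log2 change was 0.96 ± 0.338 with VX745 (adjusted p = 0.0417) and 0.73 ± 0.338 with MK25 (adjusted p = 0.0946), and the former is not called once any 1 of the 4 libraries is left out.

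The other members did not pass the test. MAP3K5, MAPK11, MAPK12, MAPKAPK3 and MAPKAPK5 changed by between -0.13 and 0.14 on the log2 scale with VX745 and by between -0.15 and 0.09 with MK25. MAP3K5, which had fallen in ischemia with DMSO as MAP2K3 had, was at 3.63 and 3.78 with VX745 and 3.62 and 3.45 with MK25, beside 3.49 and 3.64 with DMSO, and these 3 groups overlap. With reads scaled to library totals, a rise of MAP3K5 with VX745 was called (0.26, adjusted p = 0.0454).

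In regular culture the inhibitors changed 1 member each, and in both cases it was MAP2K6. VX745 called 0.335% of all genes (47 of 14024), and MAP2K6 was 1 of them. Its log2 level was 4.52 and 4.56 with VX745 against 3.67 and 3.57 with DMSO, a rise of 1.89-fold (0.92 ± 0.101, adjusted p = 2.68e-04). The other 9 members lay between -0.05 and 0.18, with the widest interval that of MAPK13 (-0.53 to 0.89).

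MK25 called 12.2% of all genes in regular culture. MAP2K6 was at 4.21 and 4.44 and rose 1.63-fold (0.70 ± 0.101, adjusted p = 1.78e-04). The other 9 members changed by between -0.03 and 0.32 and did not pass. Among them MAPK12 was at 5.01 and 4.70 with MK25 against 4.59 and 4.64 with DMSO (0.24 ± 0.0927, adjusted p = 0.0995), and it is called (0.40, adjusted p = 0.0149) without the second MK25 library, which raises the count from 1 to 2.

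**Figure D4:**
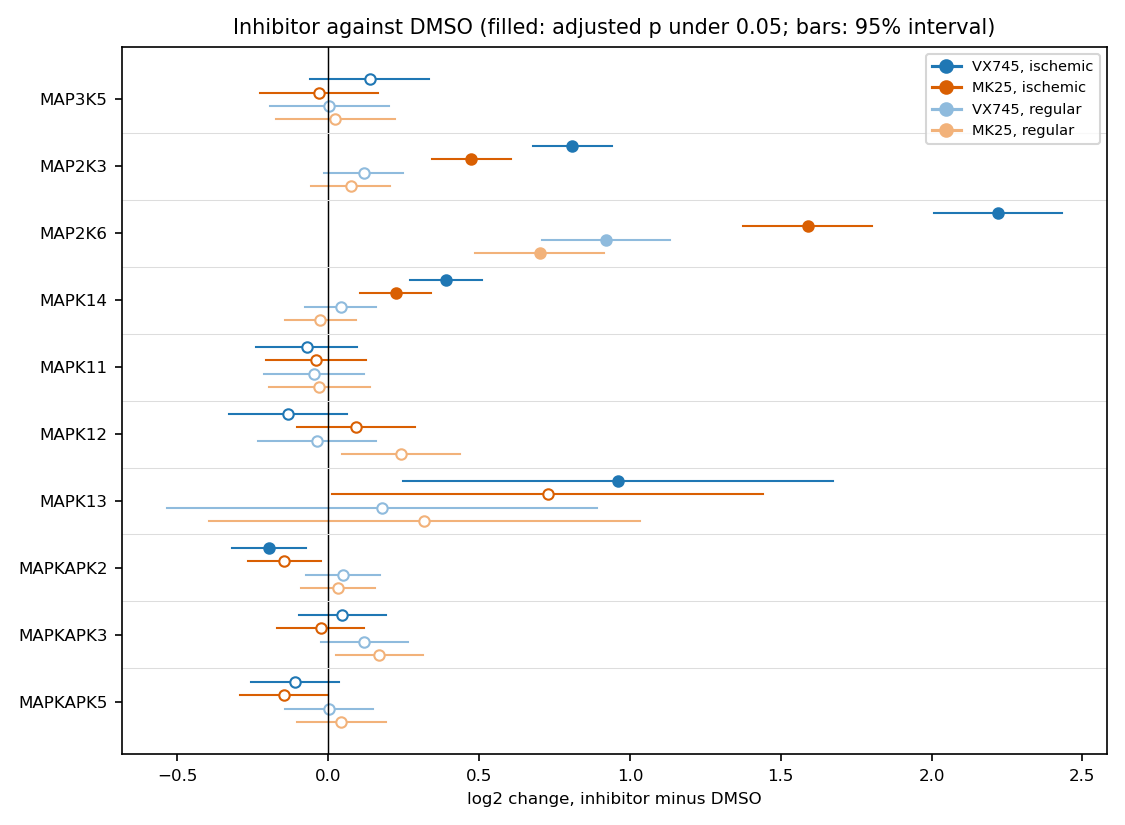
Log2 change from DMSO to inhibitor (horizontal axis) of each kinase, for VX745 (blue) and MK25 (orange) in ischemic (dark) and regular (light) culture. Points are limma estimates, filled where the adjusted p is under 0.05, and bars are 95% intervals. MAP2K6 is filled in all 4 comparisons, from 0.70 to 2.22, and MAP2K3 and MAPK14 are filled in ischemic culture.

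The third question was whether the inhibitor effects depend on the culture, which the interaction terms test. For VX745 the effect in ischemia exceeded that in regular culture by 1.30 ± 0.143 for MAP2K6 (adjusted p = 6.94e-05), by 0.69 ± 0.0878 for MAP2K3 (adjusted p = 2.14e-04) and by 0.35 ± 0.0790 for MAPK14 (adjusted p = 0.00984), all on the log2 scale. These are 3 of 10 members, where 11.8% of all genes were called. For MK25 the same 3 genes were called, with terms of 0.89 ± 0.143 (adjusted p = 2.96e-04), 0.40 ± 0.0878 (adjusted p = 0.00333) and 0.25 ± 0.0790 (adjusted p = 0.0291), where 24.4% of all genes were. The 2 terms share the DMSO libraries. The term of MAPK14 for MK25 kept its call under 10 of 16 alternatives and ran from 0.21 to 0.38. It is not called without ischemic MK25 library 1, either ischemic DMSO library, regular MK25 library 2 or regular DMSO library 1. The term of MAPKAPK2 was -0.24 with VX745 (adjusted p = 0.0612) and -0.18 with MK25 (adjusted p = 0.124). The other 6 members did not pass, with terms between -0.11 (MAPKAPK5) and 0.78 (MAPK13) for VX745 and between -0.19 (MAPKAPK3) and 0.41 (MAPK13) for MK25.

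The inhibitors were also compared with each other. No DMSO library enters the difference of the means, but the spread was estimated over all 12 libraries of the second experiment, DMSO included. The study's methods give each inhibitor a concentration of its own, so the sizes hold for unequal amounts. In ischemic culture 3 of 10 members differed (18.4% of all genes), and all 3 were lower with MK25 than with VX745. The log2 difference was -0.63 ± 0.101 for MAP2K6 (adjusted p = 2.30e-04), -0.34 ± 0.0621 for MAP2K3 (adjusted p = 9.13e-04) and -0.17 ± 0.0559 for MAPK14 (adjusted p = 0.0456). That of MAPK14 is near the threshold and kept its call under 3 of 12 alternatives. It is not called when any 1 of the 4 libraries is left out. MAPK12 was higher with MK25 by 0.23 ± 0.0927 (adjusted p = 0.107), which is not a call. The other 6 members lay between -0.23 (MAPK13) and 0.05 (MAPKAPK2).

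In regular culture 0 of 10 members passed in limma (5.39% of all genes), with 2 of 10 at an unadjusted p under 0.05, as were 17.6% of all genes. These were MAPK12, at a difference of 0.28 (95% interval 0.08 to 0.47), and MAP2K6, at -0.22 (-0.43 to -0.01). The other 8 members lay between -0.07 (MAPK14) and 0.14 (MAPK13). With voom on the whole reads, also 0 of 10 passed. Without the second regular MK25 library, MAPK12 alone passed.

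The counts were also taken with a fold of at least 1.5 required. In the culture comparisons 4 of 9 members passed in untreated cells (MAP2K6, MAP3K5, MAP2K3 and MAPK14) where 41.4% of all genes did, and 4 of 10 with DMSO (MAP2K6, MAPK13, MAP3K5 and MAP2K3) where 36% did. With VX745 MAP3K5 alone passed (33% of all genes), and with MK25 MAP3K5 and MAP2K6 (32.6%). Against DMSO in ischemia, MAP2K6, MAPK13 and MAP2K3 passed with VX745 (5.26% of all genes) and MAP2K6 with MK25 (9.67%), and in regular culture MAP2K6 passed with VX745 (0.0998%) and with MK25 (2.49%). MAP2K6 also passed between the inhibitors in ischemia (3.96%), where in regular culture none of the 10 did (1.46%). MAP2K6 and MAP2K3 passed for the interaction with VX745 (3.09%) and MAP2K6 for that with MK25 (7.94%).

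Across the 6 groups of the second experiment, the order of the mean levels differed by gene. MAP2K6 ran from ischemic DMSO (2.12) through regular DMSO (3.62), ischemic MK25 (3.70), regular MK25 (4.32) and ischemic VX745 (4.34) to regular VX745 (4.54), and only the ranges of regular MK25 and ischemic VX745 overlapped between neighbours. MAP2K3 ran from ischemic DMSO (5.40) through ischemic MK25 (5.87) and ischemic VX745 (6.21) to regular DMSO (6.31), regular MK25 (6.38) and regular VX745 (6.42), with an overlap only between the last pair. MAPK14 took a like order, from 5.77 in ischemic DMSO through 5.99 and 6.16 in ischemic MK25 and VX745 to between 6.20 and 6.26 in the regular groups.

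MAP3K5 and MAPK11 split by culture alone. The 3 ischemic groups of MAP3K5 had means between 3.54 and 3.70 and the 3 regular ones between 4.49 and 4.52, and all neighbours within a culture overlapped. The regular means of MAPK11 lay between 4.27 and 4.32 and the ischemic ones between 4.55 and 4.62, again with overlap within each culture. For MAPKAPK3 every pair of neighbours overlapped, over means from 5.25 to 5.43. MAPKAPK5 overlapped between all neighbours but ischemic VX745 (5.24) and ischemic DMSO (5.35).

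The genes most like each member were sought over the 12 libraries of the second experiment, among the 10053 genes whose mean log2 level was 3 or more, by Pearson's r. The libraries form 2 cultures and 6 groups and the values serve as a description. MAPK14 and MAP2K3 were each other's nearest gene (r = 0.991). The next for MAPK14 was PPM1F (r = 0.985), and the next for MAP2K3 was IL6R (r = 0.985). MAP2K6 was nearest to GBP2 (r = 0.988) and EEF2K (r = 0.975), a different pair. MAP3K5 was nearest to SAMHD1 and TOMM40L (0.993 and 0.991), MAPK11 to PCSK5 and KIFC2 (0.987 and 0.982), MAPKAPK2 to DMAC2 and LAP3 (0.975 and 0.975) and MAPKAPK5 to RPL3 and SNHG5 (0.963 and 0.961). MAPK12 (SOD2 and CAPS, 0.830 and 0.828) and MAPKAPK3 (RFXANK and METTL17, 0.885 and 0.858) had no neighbour above 0.9.

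Other genes of the pathway were followed as lists by role. Their counts are to be read against the shares of all genes called, which were 35.2% higher and 35.2% lower in untreated ischemia, and 34.4% and 35.2% in ischemia with DMSO. In ischemic culture VX745 raised 14% and lowered 14.9% of all genes, and MK25 19.8% and 22.0%. In regular culture VX745 raised 0.178% and lowered 0.157%, and MK25 7.0% and 5.21%. Of 11 further kinases upstream of p38 (MAP3Ks, TAO kinases and MAP2K4), 2 rose and 6 fell in untreated ischemia and 3 rose and 6 fell with DMSO. The leading changes were in TAOK1 (0.70) and MAP3K4 (-0.80) in untreated cells and in MAP3K20 (0.35) and TAOK2 (-1.15) with DMSO, where MAP3K20 encodes the ribosome stress kinase ZAK. In ischemia, VX745 changed 3 of the 11, with TAOK3 highest (0.32) and MAP3K7 lowest (-0.18), where 28.9% of all genes were called, and MK25 changed 6, where 41.7% were, with TAOK3 highest (0.33) and MAP3K20 lowest (-0.30). In regular culture 0 of the 11 passed in limma with either inhibitor, with 0 of them at an unadjusted p under 0.05 for VX745 and 5 for MK25, and 0 passed with voom.

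Of 8 listed adaptors and regulators of ASK1, TAK1 and MTK1, 4 rose and 2 fell in untreated ischemia, led by GADD45B (1.25), which binds MTK1, and TXN (-0.80), the thioredoxin that holds ASK1 inactive. With DMSO 3 rose and 2 fell, led by GADD45A (1.67) and TAB3 (-0.52). GADD45B rose further in ischemia with VX745 (0.92) and with MK25 (0.99), where TXN (-0.24) and GADD45A (-0.44) were lowest. In regular culture GADD45A alone fell with MK25 (-0.34), and 0 of the 8 passed in limma or voom with VX745 (2 at an unadjusted p under 0.05).

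Of 6 listed phosphatases that act on p38, DUSP1 rose most in ischemia, by 3.50 on the log2 scale in untreated cells and by 3.87 with DMSO, and PPM1D fell most, by 0.79 and 0.51. In all, 2 rose and 1 fell in untreated cells, and 2 rose and 3 fell with DMSO. In ischemia DUSP10 fell with VX745 (-0.61) and with MK25 (-0.98), while DUSP16 rose with VX745 (0.52) and PPM1A with MK25 (0.19). In regular culture MK25 raised DUSP10 (0.32), 1 of the 6, and VX745 passed 0 of the 6 in limma or voom (1 at an unadjusted p under 0.05).

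Of the 4 other kinases that p38 activates, MKNK2 rose in ischemia (1.55 untreated, 1.16 with DMSO). RPS6KA4 (MSK2) was lowest in untreated cells (-0.34) and MKNK1 with DMSO (-0.31). In ischemia VX745 lowered MKNK2 (-0.43) and raised RPS6KA4 (0.41), and MK25 lowered MKNK2 (-0.16) and raised MKNK1 (0.27). In regular culture 0 of the 4 passed in limma or voom with either inhibitor, with 1 at an unadjusted p under 0.05 for VX745 and 0 for MK25.

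Of 17 listed substrates of p38 or MK2, 9 rose and 6 fell in untreated ischemia (70.4% of all genes called) and 8 rose and 6 fell with DMSO (69.6%). MEF2A rose most in untreated cells (1.51) and ZFP36 with DMSO (1.49), and HSPB1 (-1.49) and LIMK1 (-1.03) fell most. ZFP36 encodes tristetraprolin, the AU-rich element protein that MK2 inactivates. In ischemia 2 rose and 3 fell with VX745 (LIMK1 0.48, ELK1 -0.34, with 28.9% of all genes called) and 3 rose and 5 fell with MK25 (LIMK1 0.41, ZFP36L1 -0.52, with 41.7% called), and in regular culture MK25 lowered 5, with ZFP36 lowest (-0.71), or 2 with voom. With VX745 in regular culture 0 of the 17 passed in limma or voom (5 at an unadjusted p under 0.05).

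For comparison, of 14 listed kinases of the JNK and ERK cascades, 7 rose and 3 fell in untreated ischemia and 9 rose and 3 fell with DMSO. MAPK7 (ERK5) rose most, by 2.38 and 1.97 on the log2 scale. In ischemia VX745 lowered 5 of the 14, with MAPK7 lowest (-0.50), where 14.9% of all genes fell. MK25 raised 1 (MAPK3, 0.30) and lowered 6, with MAPK8 lowest (-0.48), where 19.8% of all genes rose and 22.0% fell. The median change of these kinases in ischemia was -0.11 with VX745 and -0.14 with MK25, beside 0.09 and 0.03 over the 10 p38 cascade members. In regular culture MK25 raised 2 and lowered 2 (MAP2K1 0.41, MAP2K2 -0.23), or raised 1 and lowered 1 with voom. With VX745 in regular culture 0 of the 14 passed in limma or voom (1 at an unadjusted p under 0.05).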

How the data were processed

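RNA from LN229 cells was sequenced in 16 libraries (8 groups of 2). According to the methods and the submitters' processing notes, the authors trimmed reads, aligned them to GRCh38 with HISAT2 in Galaxy and used edgeR. The counting program is not given in the sources used here. The deposited values are log2 normalized CPM per gene and library, in 1 table per experiment normalized separately.

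Undoing the logarithm gave whole reads for 100% of values (tolerance 0.05 reads). Entrez identifiers matched a symbol for 99.4% and 99.3% of genes. Log2 values were fitted as deposited with limma 3.58.1 (R 4.3.3), 1 mean per group and a variance trend, separately for each experiment. Tests are two-sided with Benjamini-Hochberg adjustment over all genes, and a call is an adjusted p under 0.05. A count test was not the main test because the deposited values are normalized. In data simulated at the depth of the VX745 comparison in ischemia (14024 genes), a log2 change of 0.5 was called for 38 of 50 genes. The spread between simulated libraries was a set value, and genes with few reads, such as MAPK13, were not among those changed. Few genes were changed, while 28.9% of all genes were called in the real comparison. The share is therefore not the power for these members.

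All 10 members were covered in every comparison by value or range, and named in each list were the called genes with the largest rise and fall, except 1 gene that is not reported here. Members and lists were chosen with earlier results of these data known. Alternatives were scaling, filtering, variance trend, voom on whole reads, a replicate block, a fold of 1.5 and leaving out each library.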

Additional observations from a re-analysis of the deposited data

Results flagged for a closer look

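The effect of an inhibitor differed between ischemic and regular culture for 3 of the 10 kinases, by the interaction term of the limma fit, where 11.8% of all genes were called for VX745 and 24.4% for MK25. For VX745 the terms were 1.30 for MAP2K6, 0.69 for MAP2K3 and 0.35 for MAPK14 on the log2 scale. For MK25 they were 0.89, 0.40 and 0.25 for the same genes. In each case the change with the inhibitor was more positive in ischemic culture. In regular culture only MAP2K6 was called, and the mean log2 level of MAPK14 was 6.22 with DMSO and 6.20 with MK25. The level under DMSO was lower in ischemic culture for each gene, and it is itself a part of the term. The 2 sets of terms use the same DMSO libraries, so they are not independent of each other. With 2 libraries per group, no single sample could be examined as an outlier.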

How the results depend on the processing

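Of 119 member comparisons, 46 were called, and 33 of these kept their call and sign under every alternative run other than the fold of 1.5. MAP2K6 against DMSO and the culture effects of MAP3K5 were among them. Another 59 were called under no setting, and of those 30 changed sign under some setting. Asking for a fold of 1.5 reduced the members called to 4 in the untreated and 4 in the DMSO culture comparison, 1 for culture with VX745, 2 for culture with MK25, 3 and 1 for VX745 and MK25 in ischemia, 1 for MK25 against VX745 in ischemia and 1 for the MK25 interaction. Quantile normalization left 3 for VX745 in ischemia, without MAPK13 and MAPKAPK2.

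With single libraries left out, the counts ran from 3 to 5 for culture with VX745, from 3 to 5 for VX745 in ischemia, from 1 to 2 for MK25 in regular culture and from 0 to 1 for MK25 against VX745 in regular culture. A group left with 1 library is then assumed to vary like the others.

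Scaling reads to library totals, chosen after seeing the data, moves the median of all genes by -0.18 in the untreated and -0.23 in the DMSO culture comparison and by 0.12 and 0.13 for VX745 and MK25 in ischemia. Under it the culture effect of MAPKAPK3 with DMSO turned from 0.02 to -0.20 and was called (adjusted p = 0.0150), and in the main scaling it ran from -0.042 to 0.085 with single libraries left out. The cause was not tested. Of the genes called, the share that was higher was 51.1% and, scaled to totals, 41.0% for culture with VX745, 48.3% and 83.3% for VX745 in ischemia, 47.4% and 74.6% for MK25 in ischemia, 49.1% and 82.6% for the VX745 interaction and 42.9% and 71.9% for the MK25 interaction.

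The replicate numbers were not shown to pair the libraries. Gene deviations of same-numbered libraries correlated at 0.185 in the first experiment and at -0.104 to 0.178 in the second. The replicate block left the counts at 8, 7, 5 and 7 for the culture comparisons and 4 and 3 for VX745 and MK25 in ischemia, and ended the calls of MAPK13 with VX745 (adjusted p = 0.0501) and of MAPK14 for MK25 against VX745 (adjusted p = 0.0539). It changed no other call of a member. Crossed numbers, also chosen after seeing the data, gave 5 for MK25 in ischemia. Few reads limit MAPK13, and 2 libraries per group limit every test.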
